A study of Homo sapiens with 4 samples.

Results

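The retinoid receptor genes RARA, RARB, RARG, RXRA, RXRB and RXRG and the corepressor gene NCOR1 were followed in SK-N-BE(2)C cells. These 7 genes were taken by symbol from the 55765 gene symbols of the count table, and 6 of them had enough reads to be tested among 18900 genes. SK-N-BE(2)C is an established human neuroblastoma line with amplified MYCN. The 2 libraries of the ATRA group come from cells given all-trans retinoic acid at 10 µM for 144 h, and the 2 of the ethanol group from cells given ethanol, the solvent, for 144 h. All libraries come from this 1 line, and the sample labels name no genetic change in either group.

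The receptors RARα, RARβ and RARγ bind retinoic acid and sit on DNA as pairs with an RXR. Without ligand the pair holds corepressors such as NCOR1, which brings histone deacetylase 3 to the gene. Ligand releases the corepressor and draws in coactivators of the p160 family and the acetyltransferases EP300 and CREBBP. The pair favours direct repeats of a 6-base half-site with 5 bases between them, called DR5, or with other spacings such as 2 (DR2) and 1 (DR1). RARB carries such an element in its own promoter and is a textbook target of retinoic acid. Retinoic acid drives neuroblastoma cells towards neuronal differentiation.

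The promoter of RARB is shown because RARB was the member with the largest response and the known carrier of an element. The sequence holds the 250 bases before the RefSeq start of the gene at chr3:25428013-25428262 (GRCh38.p14, plus strand). Capitals mark half-sites, searched on both strands as 1 of 4 words, namely AGGTCA or GGGTCA, and AGTTCA or GGTTCA. The first RefSeq window of RARA, at chr17:40308930-40309179 (GRCh38.p14, plus strand), is given for comparison.
RARB: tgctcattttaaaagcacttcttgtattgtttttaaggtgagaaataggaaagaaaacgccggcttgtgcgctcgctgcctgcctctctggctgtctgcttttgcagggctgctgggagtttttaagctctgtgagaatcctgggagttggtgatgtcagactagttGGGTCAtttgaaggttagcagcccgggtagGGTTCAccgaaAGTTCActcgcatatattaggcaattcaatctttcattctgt
RARA: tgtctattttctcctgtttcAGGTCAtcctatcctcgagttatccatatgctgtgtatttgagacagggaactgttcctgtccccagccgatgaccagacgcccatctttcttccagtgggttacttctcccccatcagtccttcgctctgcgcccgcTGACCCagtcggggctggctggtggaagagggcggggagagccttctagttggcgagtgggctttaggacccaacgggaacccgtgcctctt

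In the RARB window 2 half-sites stood head to tail with 5 bases between them, from base -53 to base -37 before the start. A further half-site lay at -83 to -78. The RARA window held 1 half-site on each strand and no direct repeat. RefSeq lists 15 windows for the 7 genes (4 for RARB, 3 for RARA, 2 each for RXRA, RXRB and NCOR1, and 1 each for RARG and RXRG). Over all 300 bases of each window, 250 before and 50 after the start, DR5 was found in 1 of the 15, and DR1 and DR2 in 0. Of all 35116 RefSeq windows of this length, 0.0883% held a DR5 and 38.6% held at least 1 half-site. A match of letters is a description of the window and does not show that a receptor binds there, and the counts per gene do not tell which start was used.

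**Figure D1:**
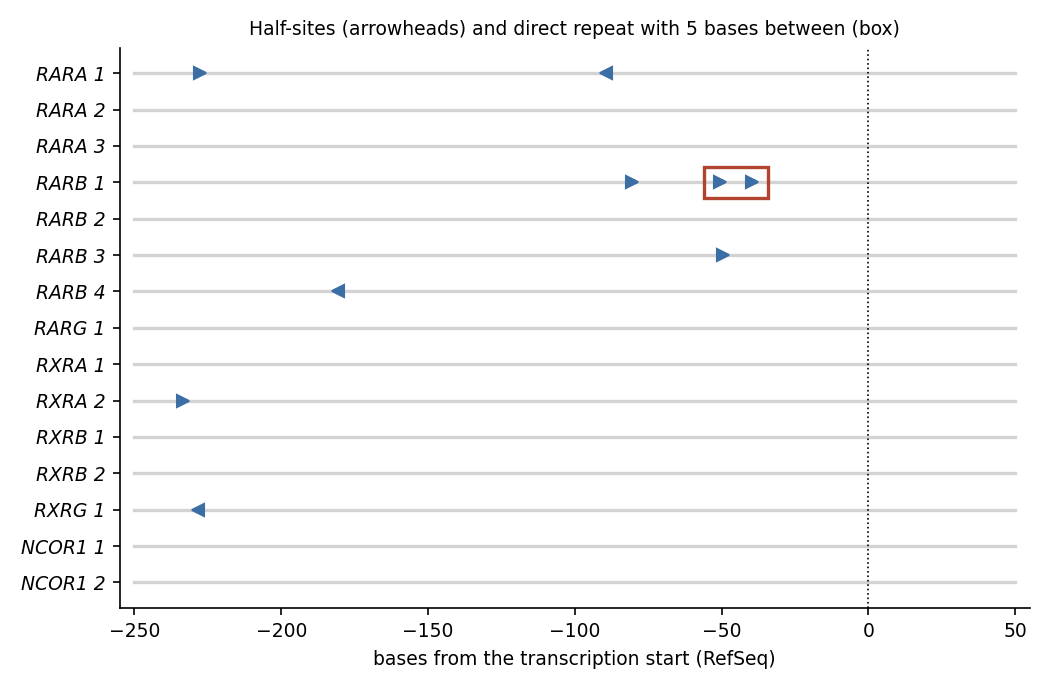
Positions of half-sites in the 15 RefSeq promoter windows of the 7 genes, in bases from the transcription start at 0. Arrowheads point along or against the gene, and the box marks the single direct repeat with 5 bases inside it, at -53 to -37 in the first RARB window.

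Genes with such a repeat were set beside RARB. The 31 windows with a DR5 belong to genes of which 9 were tested. Of these 9, 2 rose with ATRA and 0 fell. Among all 10417 tested genes with any promoter window, 0.662% rose and 0.134% fell. With a DR1, 0 of 21 tested genes rose, and with a DR2, 0 of 5. Where 0.662% rise in all, 0 among so few genes says little about these spacings. Of the 2 genes with a DR5 that rose, 1 is RARB, whose repeat was known and prompted the search, and the other is CYP26A1. The count is thus a description and not a test. The other 7 genes with a DR5 were not called, with log2 fold changes between -0.21 and 1.07. The repeats of the 2 genes that rose are printed 5′ to 3′ along the repeat, with the half-sites in capitals.
RARB: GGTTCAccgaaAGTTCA
CYP26A1: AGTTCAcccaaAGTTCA
The RARB repeat lies at chr3:25428210-25428226 on the plus strand (GRCh38.p14). The CYP26A1 repeat lies at chr10:93073803-93073819 on the minus strand, against the direction of its gene. Both share the second half-site AGTTCA. CYP26A1, an enzyme that breaks down retinoic acid, had 2066 and 4466 reads in the ATRA libraries and 0 in both ethanol libraries. Against 3 counts over the ethanol group it was at least 2294-fold higher with ATRA.

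Total counts were 15518828 and 16498355 in ATRA replicates 1 and 2, and 12850462 and 19883465 in ethanol replicates 1 and 2. Libraries also differed by replicate number. Ribosomal RNA of mitochondria made up 2.49% and 0.130% of the reads of ATRA replicates 1 and 2, and 5.96% and 0.0291% of those of ethanol replicates 1 and 2. Differences within replicate 1 and within replicate 2 therefore stand beside the fitted values. All 9 neuroblast markers (MYCN, HAND2, ISL1, GATA3, TH, DBH, CHGA, STMN2 and GAP43) were above 1 CPM in every library. They summed to 4055 and 4882 CPM with ATRA and to 7721 and 6484 CPM with ethanol. Of this sum MYCN held 2319 and 1778 CPM with ATRA and 3739 and 2910 CPM with ethanol, without a call. The 2 markers with log2 fold changes above 0 were GAP43 (0.99 ± 0.37) and STMN2 (0.77 ± 0.56), neither of them called. Of the 9 markers, 2 were called, both lower with ATRA. GATA3 had 5.76 and 7.30 CPM with ATRA and 38.8 and 42.7 CPM with ethanol (log2 -2.64 ± 0.30, adjusted p 0.0381, edgeR quasi-likelihood). CHGA had 187 and 235 CPM with ATRA and 2511 and 1605 CPM with ethanol (log2 -3.29 ± 0.35, adjusted p 0.0381, edgeR quasi-likelihood). Of 5 fibroblast markers, 3 were also above 1 CPM in every library (DCN, LUM and PDGFRB), and the 5 summed to 126 and 347 CPM with ATRA and to 232 and 551 CPM with ethanol. Single fibroblast markers differed in direction without a call: LUM had 13.7 and 21.8 CPM with ATRA and 39.8 and 126 CPM with ethanol, COL1A1 23.0 and 4.91 CPM with ATRA and 0 and 0.644 CPM with ethanol. Endothelial markers summed to at most 1.02 CPM and epithelial markers to at most 1.73 CPM in any library. The 4 Schwann cell markers summed to 17.5 and 20.1 CPM with ATRA and to 6.70 and 5.80 CPM with ethanol, and the 5 immune markers to 20.6 and 7.12 CPM with ATRA and to 3.54 and 1.78 CPM with ethanol. The part of these markers in the results was not tested.

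RARB, the receptor gene that retinoic acid itself induces, rose about 30.2-fold and was the 1 member that passed the test. It had 508 and 1118 reads in ATRA replicates 1 and 2, against 20 and 36 reads in ethanol replicates 1 and 2. On the CPM scale (counts scaled to a common TMM-adjusted library size) this was 34.4 and 66.9 with ATRA, against 1.54 and 1.78 with ethanol. The ATRA libraries lay far above both ethanol libraries and differed among themselves, replicate 2 being the higher. The log2 fold change was 4.92 ± 0.46 (SE), with a 95% interval of 3.80 to 6.03 and adjusted p 0.0319 (edgeR quasi-likelihood). Within replicates 1 and 2 the log2 differences were 4.38 and 5.13. By fold, RARB ranked 139 from the top among the 18900 genes, and by p it ranked 21. In all, 132 genes (0.698%) were called at an adjusted p under 0.05, with 103 (0.545%) higher and 29 (0.153%) lower with ATRA. With limma-voom, which called 0.265% of all genes, RARB missed the threshold at adjusted p 0.0515.

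RARA, the isotype expressed in most tissues and the partner of PML in promyelocytic leukaemia, was about 2.86-fold higher with ATRA without passing the test. It had 1083 and 881 reads, or 73.4 and 52.7 CPM, in the ATRA libraries and 295 and 430 reads, or 22.7 and 21.3 CPM, in the ethanol libraries. The groups did not overlap. ATRA libraries lay above both ethanol libraries at 23.8% of all genes tested. The log2 fold change was 1.52 ± 0.28 (SE), with a 95% interval of 0.84 to 2.20, 1.69 and 1.30 within replicates, and adjusted p 0.0760 (edgeR quasi-likelihood). Whether RARA passed varied with the fit. Without 1 library the log2 fold change of RARA stayed between 1.25 and 1.73. Every such fit gave a lower adjusted p than the fit of all libraries, so these calls do not single out a library. In such fits the lone library of a group is assumed to vary like the other group. Leaving out ATRA replicate 2 gave adjusted p 0.000928 and leaving out ethanol replicate 1 gave 0.0479 (edgeR quasi-likelihood), in fits that called 4.05% and 2.68% of all genes higher. Leaving out ATRA replicate 1 gave 0.0646 and leaving out ethanol replicate 2 gave 0.0523. DESeq2 called it (adjusted p 0.000987), as did edgeR quasi-likelihood with every gene of at least 1 count (adjusted p 0.00150). Those tests called 7.3% and 4.88% of all genes.

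RARG, the isotype best known from skin and cartilage, was higher in replicate 2 of both groups and did not part the treatments. It had 18.4 and 25.1 CPM in ATRA replicates 1 and 2, and 11.3 and 31.0 CPM in ethanol replicates 1 and 2. Ethanol replicate 1 was the lowest library and ethanol replicate 2 the highest, so that the ATRA libraries lay between them. The log2 fold change was 0.04 ± 0.50 (SE), with a 95% interval of -1.19 to 1.27 (adjusted p 0.988, edgeR quasi-likelihood), so changes of up to 2.41-fold in the higher direction lie within it. Within replicate 1 the log2 difference was 0.70 and within replicate 2 it was -0.30, and such opposite signs were found at 26.3% of all genes. Mitochondrial ribosomal RNA parted the replicate numbers as well, and its part in the RARG values was not tested.

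**Figure D2:**
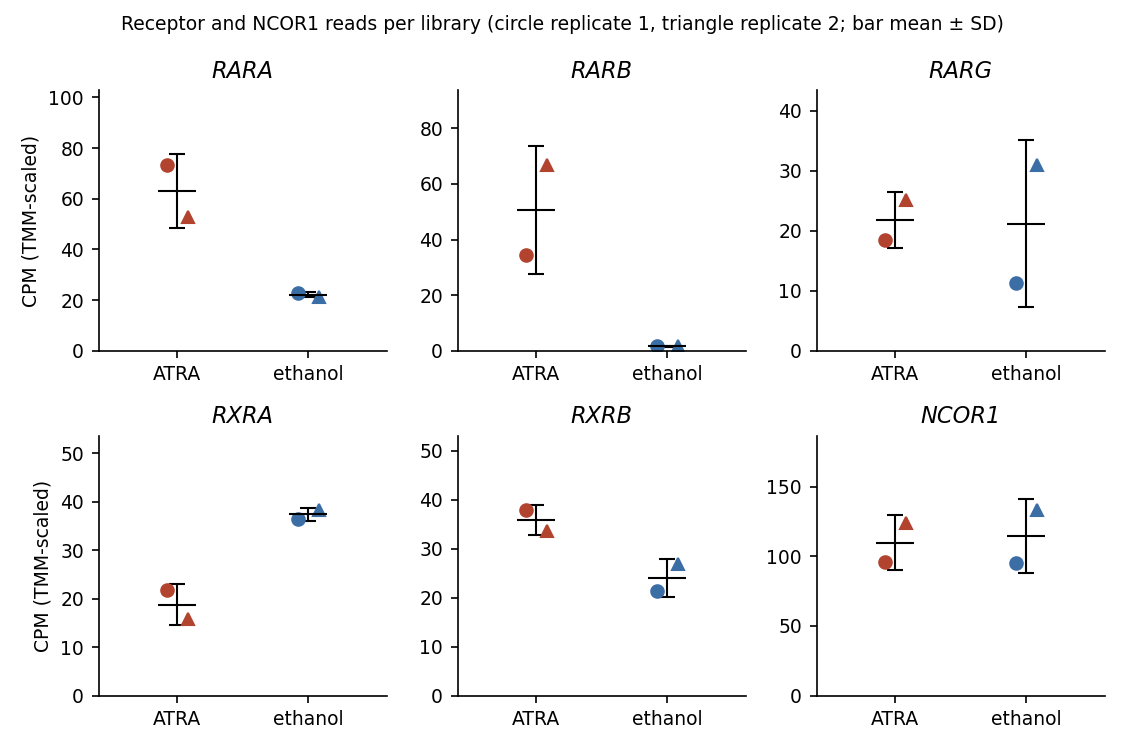
TMM-scaled CPM of RARA, RARB, RARG, RXRA, RXRB and NCOR1 in each library, ATRA left and ethanol right, each panel with its own axis from 0. Circles are replicate 1, triangles replicate 2, and the bar with whiskers is the mean ± SD (n = 2 each). The ATRA libraries of RARA, RARB and RXRB stand above both ethanol libraries, as at 23.8% of all genes tested. Those of RXRA stand below both, as at 21.7% of all genes tested.

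RXRA, a general heterodimer partner of the RARs and other nuclear receptors, was lower with ATRA by about 2.00-fold without passing the test. It had 321 and 263 reads, or 21.7 and 15.7 CPM, with ATRA and 474 and 774 reads, or 36.5 and 38.4 CPM, with ethanol. Both ATRA libraries lay below both ethanol libraries, as at 21.7% of all genes tested. The log2 fold change was -0.998 ± 0.286 (SE), with a 95% interval of -1.70 to -0.30, -0.74 and -1.28 within replicates, and adjusted p 0.170 (edgeR quasi-likelihood). RXRA and RARA thus stood on opposite sides of their ethanol libraries.

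RXRB, the widely expressed second RXR, had 37.9 and 33.6 CPM with ATRA and 21.3 and 26.8 CPM with ethanol. The ATRA libraries were the higher ones, by a log2 fold change of 0.57 ± 0.27 (SE) with a 95% interval of -0.08 to 1.23 (adjusted p 0.377, edgeR quasi-likelihood). Within replicates the log2 differences were 0.83 and 0.33. RXRB overlaps SLC39A7, a zinc transporter gene on the other strand. SLC39A7 had 119 and 81.8 CPM with ATRA and 77.5 and 72.1 CPM with ethanol, likewise higher in both ATRA libraries. That position was found at 23.8% of all genes tested, and SLC39A7 was not called (log2 0.43 ± 0.28, adjusted p 0.550, edgeR quasi-likelihood). The strand setting of the counting is not given in the sources used here, so reads of such overlapping pairs are uncertain. RXRG, the RXR of muscle and parts of the brain, had 0 reads in all 4 libraries. A count of 0 allows up to 0.203 and 0.179 CPM in the ATRA libraries and up to 0.231 and 0.149 CPM in the ethanol libraries, so RXRG was not detectable at this depth and was not tested.

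NCOR1, the corepressor that holds unliganded receptors silent, had 95.9 and 124 CPM with ATRA and 95.5 and 133 CPM with ethanol. The replicate 1 libraries nearly coincided across treatments, and both replicate 2 libraries were higher. The log2 fold change was -0.06 ± 0.28 (SE), with a 95% interval of -0.75 to 0.64 and 0.01 and -0.11 within replicates (adjusted p 0.961, edgeR quasi-likelihood). The interval reaches from 0.593-fold to 1.55-fold. Its pseudogenes NCOR1P1, NCOR1P2 and NCOR1P3 had between 0 and 2 reads in any library. TTC19 and PIGL, which overlap NCOR1 on the other strand, and TOP2B, which overlaps RARB on the other strand, had log2 fold changes of 0.14, -0.11 and 0.29, and their groups overlapped.

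**Figure D3:**
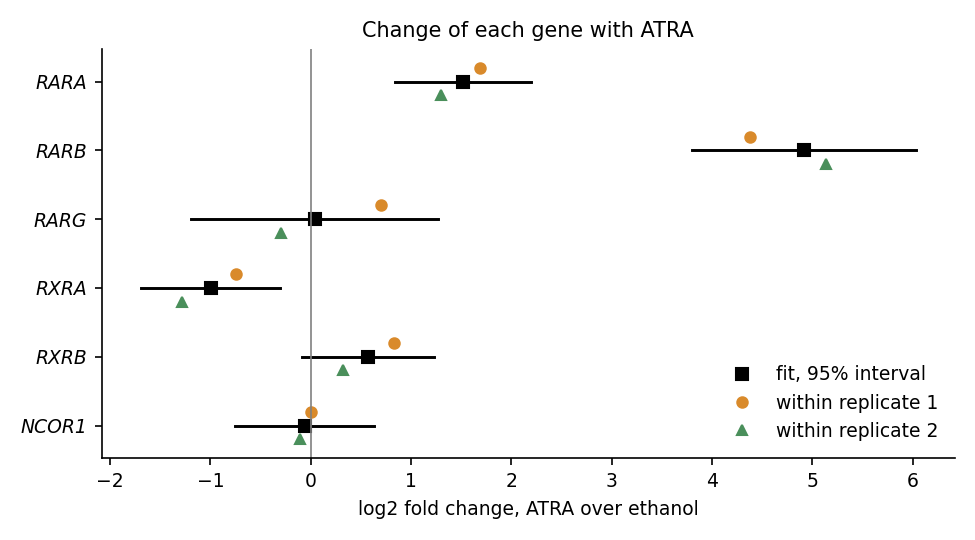
Log2 fold change of ATRA over ethanol for the 6 genes tested. Squares with lines are the edgeR fit with its 95% interval, circles the difference within replicate 1 and triangles that within replicate 2; the interval of RARB, 3.80 to 6.03, lies apart from the other 5, and the 2 points of RARG lie on opposite sides of 0.

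Levels were compared between genes as CPM per kilobase of merged exons (GENCODE 29). With ATRA, RARB had 13.7 ± 6.21 and RARA 13.3 ± 3.09 CPM per kilobase (SD, n = 2 each), and their libraries overlapped. Next by mean came RXRB at 9.13 ± 0.778 CPM per kilobase, which lay below both RARA libraries but overlapped RARB. RXRB had 9.68 and 8.58, and RARB 9.31 and 18.1 CPM per kilobase in ATRA replicates 1 and 2. NCOR1 at 7.12 ± 1.27, RARG at 4.25 ± 0.924 and RXRA at 1.69 ± 0.383 CPM per kilobase followed, each apart from the gene before it. With ethanol the order began with NCOR1 at 7.43 ± 1.74 and RXRB at 6.14 ± 0.989 CPM per kilobase, whose libraries overlapped. RARA at 4.65 ± 0.210 overlapped RARG at 4.12 ± 2.71, and the widely spread RARG libraries overlapped RXRB and RXRA (3.38 ± 0.119 CPM per kilobase) too. RARB was last of the detected genes with ethanol, at 0.450 ± 0.0467 CPM per kilobase, apart from all others. RARB thus stood first by mean with ATRA and sixth with ethanol, and RXRA was the lowest detected member with ATRA. With the length of the longest transcript in place of the merged exons, RARA (20.7) led RARB (16.4 CPM per kilobase) with ATRA.

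The make-up of the RAR pool, the sum of the 3 RAR genes per kilobase, differed between the groups. RARB held 32.8% and 53.0% of it in ATRA replicates 1 and 2, against 5.61% and 4.38% in ethanol replicates 1 and 2. RARG held 12.7% and 14.4% with ATRA and 29.7% and 54.8% with ethanol. RARA held 54.6% and 32.6% with ATRA and 64.7% and 40.8% with ethanol. The RARB share was higher and the RARG share lower in both ATRA libraries than in both ethanol libraries, while the RARA shares overlapped. The exact two-sided permutation test gave p 0.333 for RARB and RARG, the smallest that 2 libraries against 2 allow, and 0.667 for RARA. RARG itself was at nearly the same mean level in both groups (above), so its lower share went with a larger sum.

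That sum was 28.4 and 34.1 CPM per kilobase in the ATRA libraries, against 7.42 and 11.0 in the ethanol libraries, a ratio of means of 3.39. RARA and RARG without RARB summed to 19.1 and 16.0 with ATRA and to 7.01 and 10.5 CPM per kilobase with ethanol. The RXR sum was 11.6 and 10.0 CPM per kilobase with ATRA and 8.73 and 10.3 with ethanol, and the groups overlapped. RAR exceeded RXR by 2.44-fold and 3.41-fold in the ATRA libraries, and the same ratio was 0.850 and 1.07 in the ethanol libraries. Set against NCOR1, the RAR sum was 4.56 and 4.25 times as high with ATRA and 1.20 and 1.27 times with ethanol. Such ratios between genes depend on the length used. By longest transcript the ratio to NCOR1 was 4.64 and 4.12 with ATRA and 1.32 and 1.45 with ethanol. By raw counts NCOR1 exceeded the RAR sum in both ethanol libraries. Its merged exons span 15404 bases, against 3697 to 5127 for the RAR genes. The ratio of RAR to NCOR1 was close between replicates of a group, although RAR and NCOR1 levels each differed between replicates.

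Within the RXR pool, RXRB held 83.1% and 85.8% with ATRA and 62.3% and 66.4% with ethanol, and RXRA held the rest. The ratio of RXRB to RXRA per kilobase was 4.93 and 6.04 with ATRA and 1.65 and 1.98 with ethanol, with no overlap (exact permutation p 0.333, the smallest possible). These shares depend on the length used. The mean RXRB share was 84.5% with ATRA and 64.3% with ethanol by merged exons, 79.3% and 55.9% by longest transcript, and 65.8% and 39.0% by raw counts, so that by raw counts RXRA led with ethanol. The ratio of RXRB to RXRA was 3.02 times as high with ATRA as with ethanol. Gene length cancels in that comparison, so either length must give the same value. These are mRNA levels of bulk cultures, in which fewer cells with a transcript and less of it per cell cannot be told apart.

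**Figure D4:**
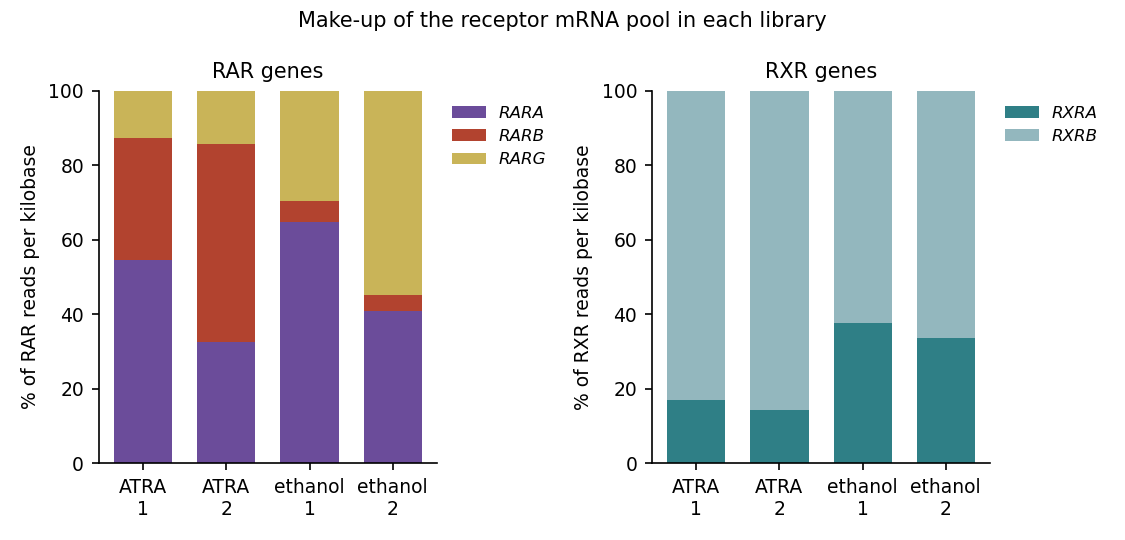
Share of each gene in the summed reads per kilobase of the RAR genes (left) and of the RXR genes (right), in percent, 1 bar per library with ATRA first. RARB takes 32.8% and 53.0% of the RAR pool with ATRA and 5.61% and 4.38% with ethanol, and RXRB takes the larger part of the RXR pool in every library per kilobase, though not by raw counts with ethanol (39.0%).

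Genes with the profile nearest to RARB over the 4 libraries were found by Euclidean distance between centred log2 CPM, among 11903 genes with a mean log2 CPM of at least 2. They were AC017048.3 at a distance of 0.40, FN1 at 0.57 and CALCB at 0.61. FN1 encodes the matrix protein fibronectin and CALCB a calcitonin gene-related peptide. FN1 had 464 and 682 CPM with ATRA and 21.7 and 33.8 CPM with ethanol, CALCB 23.0 and 30.9 CPM with ATRA and 0.770 and 0.595 CPM with ethanol. AC017048.3 had 54.5 and 72.2 CPM with ATRA and 2.23 and 2.48 CPM with ethanol. A likeness over 4 libraries rests mainly on the size of the difference between the groups.

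Genes that work with the receptors were counted next. Ligand delivery and clearance was the list with most calls. Of 13 genes 11 were tested, 3 rose, 0 fell, and the median log2 fold change was 2.78, against 0.01 over all genes tested. CYP26A1 (above), its relative CYP26B1 and the retinaldehyde reductase DHRS3 were the genes called. CYP26B1 had 356 and 1175 reads with ATRA and 1 and 0 with ethanol. Scaled to the TMM-adjusted library sizes, the ratio of the group sums was 1613 (95% counting interval from 289.1 to 63760). DHRS3 had 13.8 and 25.7 CPM with ATRA and 0.0770 and 0.396 CPM with ethanol, a log2 fold change of 6.22 ± 0.74 (adjusted p 0.0410, edgeR quasi-likelihood). The count of 3 became 6 without ATRA replicate 1 or ethanol replicate 1, 7 without ATRA replicate 2 or ethanol replicate 2, and 1 with limma-voom. The share of all genes called was 4.2% without ATRA replicate 1, 6.96% without ATRA replicate 2, 4.35% without ethanol replicate 1 and 5.88% without ethanol replicate 2, against 0.698% in the fit of all libraries and 0.265% with limma-voom.

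Receptors that pair with RXR gave 0 calls among 9 tested of 13, with a median log2 fold change of -0.24 (-0.41 without ATRA replicate 2 and -0.14 without ethanol replicate 2). PPARG, the adipogenic peroxisome proliferator-activated receptor, had 27.4 and 23.9 CPM with ATRA and 5.70 and 2.18 CPM with ethanol (log2 2.72 ± 0.51, adjusted p 0.0816, edgeR quasi-likelihood). PPARD, its broadly expressed relative, had 49.9 and 31.3 CPM with ATRA and 12.6 and 22.4 CPM with ethanol (adjusted p 0.217, edgeR quasi-likelihood). In the fits without 1 library, which called 4.2% to 6.96% of all genes, 1 or 2 genes of this list were called. The thyroid hormone receptor gene THRB, the vitamin D receptor gene VDR, NR1H4 and NR1I2 had too few reads to be tested.

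Of 12 coactivator genes 0 were called, and the median was -0.04 (-0.13 to -0.03 without 1 library). NCOA3, a p160 coactivator, had 139 and 177 CPM with ATRA and 57.7 and 90.1 CPM with ethanol (log2 1.10 ± 0.31, adjusted p 0.169, edgeR quasi-likelihood), and PPARGC1A was at -0.57 ± 0.28. Of 13 partners of NCOR1 and class I deacetylases 0 were called. Their median was -0.36, and 23.1% of them had a value above 0, against 50.8% of all genes tested. This direction rested on single libraries, since the median was 0.04 without ethanol replicate 2, -0.09 without ATRA replicate 1, -0.65 without ATRA replicate 2 and -0.58 without ethanol replicate 1. RCOR1, a scaffold of the CoREST complex, had 49.1 and 62.9 CPM with ATRA and 89.0 and 105 CPM with ethanol (log2 -0.79 ± 0.26, adjusted p 0.213, edgeR quasi-likelihood), and the histone-binding gene RBBP7 was at -0.55 ± 0.31. HDAC3, the deacetylase that NCOR1 recruits, was at -0.01 ± 0.23.

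Of 10 other modulators of RAR signalling 0 were called, with a median of 0.09 that turned to -0.11 without ATRA replicate 1 and to -0.01 without ethanol replicate 2. LCOR, a ligand-dependent corepressor, was at 0.84 ± 0.37 and NRIP1, a corepressor that binds liganded receptors, at 0.72 ± 0.33 (adjusted p 0.346 and 0.363, edgeR quasi-likelihood). NRIP1 had 221 and 215 CPM with ATRA and 95.3 and 169 CPM with ethanol. ZNF423, a zinc finger cofactor of the RAR and RXR pair, was at 0.08 ± 0.39, and PRAME, a repressor of RAR signalling, at 0.10 ± 0.31. Over these last 3 lists 35 genes were tested and 0 were called with edgeR quasi-likelihood, against 0.698% of all genes, and 2 had an unadjusted p under 0.05, against 15.9% of all genes. At that share of calls, 0 among 35 genes says little about these lists. DESeq2 and limma-voom also called 0 of them, but the fits with the replicate number as a block called genes of all 3 lists (below).

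**Figure D5:**
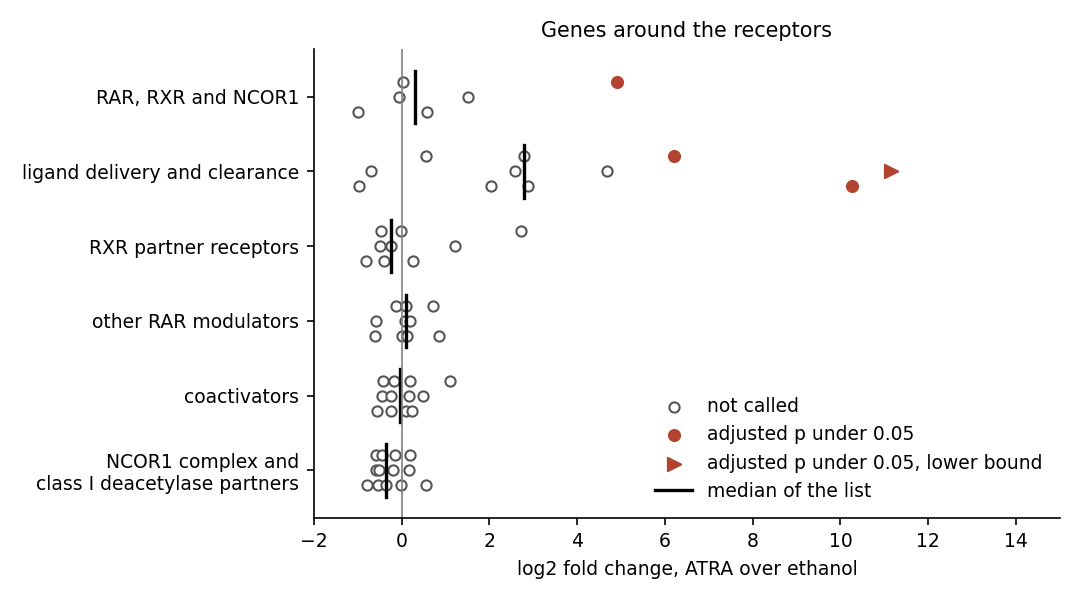
Log2 fold change of ATRA over ethanol for the receptors with NCOR1 and for 5 lists of genes around them, 1 point per gene tested. Filled points had an adjusted p under 0.05, the arrowhead is CYP26A1 at its lower bound, and black bars are list medians, from 2.78 for ligand delivery and clearance to -0.36 for the partners of NCOR1 (0.04 without ethanol replicate 2).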

How the data were processed

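RNA of SK-N-BE(2)C cells was measured in 2 ATRA and 2 ethanol libraries. Per the labels' protocols, total RNA was rid of ribosomal RNA and built into libraries that keep strand. The deposited file holds raw read counts per gene symbol. Per the submitters' processing notes, STAR 2.5.2b, featureCounts 1.5.1 and the build hg19 were named; how the counting treated annotation, strand and shared reads is not given in the sources used here. The labels do not say that libraries of a group are separate cultures; p-values then measure only the spread between these libraries, possibly technical.

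Counts were fitted with edgeR 4.0.16 in R 4.3.3 (filterByExpr with a minimum count of 10, TMM, robust quasi-likelihood F test, treatment as sole term, 2 residual degrees of freedom). P-values were two-sided, adjusted by Benjamini-Hochberg over 18900 genes and read at 0.05. A standard error is the log2 fold change over the square root of F, and intervals use the total degrees of freedom of the fit. Differences within replicates use log2 CPM with a prior count of 2. Limits for 0 reads use 3 counts; they and the 95% exact counting intervals cover counting error only. DESeq2 1.42.0 and limma 3.58.1 (voom) were alternatives. The procedure was tested on simulated data.

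Lengths came from GENCODE 29 and promoters from RefSeq (GRCh38.p14), of a later build than the counts. All 7 members matched. The members and the 5 gene lists were chosen with earlier results of these data known. Each list contributes its 3 best called genes, or its 2 lowest p-values where fewer than 2 passed, among genes averaging log2 CPM 1 or more; HDAC3, ZNF423 and PRAME were chosen after their values were seen.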

Additional observations from a re-analysis of the deposited data

How the results depend on the processing

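The number of genes called was 132, and it was 50 with limma-voom, 1380 with DESeq2, 1821 with no filter beyond 1 count per gene, and 870 to 1442 without 1 library, where the lone library of a group is assumed to vary like the other group. Members called were 1 in the reported fit, 0 with limma-voom, 2 with DESeq2, 2 with that weaker filter, and 1 to 2 without 1 library. RARB was at 4.82 with limma-voom (adjusted p 0.0515) and at 4.35 to 5.31 without 1 library. RARA was at 1.501 with DESeq2, 1.48 with the weaker filter, and 1.25 to 1.73 without 1 library. RARG was at -0.033 with the weaker filter and at -0.55 to 0.96 without 1 library, and NCOR1 at -0.33 to 0.22. RXRA was at -1.26 to -0.79 and RXRB at 0.37 to 0.76 without 1 library, with no call. DESeq2 size factors and library size alone changed no call or direction of a member. By longest transcript and by raw counts, the RARB share with ethanol was 3.72% and 3.81%, the RARG share with ATRA 16.4% and 16.0%, the RXRA share 20.7% and 34.2% with ATRA and 44.1% and 61.0% with ethanol, and the RXRB share 79.3% and 65.8% with ATRA and 55.9% and 39.0% with ethanol. Levels per kilobase of longest transcript were 20.7 CPM with ATRA and 7.24 with ethanol for RARA, 7.36 and 7.15 for RARG, 3.25 and 6.49 for RXRA, 12.3 and 8.28 for RXRB and 10.2 and 10.7 for NCOR1, and 0.539 with ethanol for RARB. Ligand genes called were 7 with DESeq2, 1 with limma-voom, 7 with the weaker filter and 6 to 7 without 1 library, and RXR partners 1 with DESeq2, 2 with the weaker filter and 1 to 2 without 1 library. The causes were not tested.

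The libraries share only a replicate number, and the labels state no pairing. Deviations of same-numbered libraries from their group means correlated at 0.632 across genes, which are not independent replicates. With the replicate number as a block, 4098 genes (21.7%) and 3 members were called (2727 genes, 14.4%, and 3 members with DESeq2): RARB, RARA at 1.497 (1.48 with DESeq2) and RXRA at -1.02 (-1.03 with DESeq2). In that fit adjusted p was 0.000541 for RARA and 0.00725 for RXRA (edgeR quasi-likelihood). The block called 4 partners of NCOR1, 3 coactivators, 4 other modulators, 2 RXR partners and 7 ligand genes (1, 1, 2, 2 and 7 with DESeq2). Of these, in the order given, the edgeR fit called 0, 2, 2, 1 and 6 higher and 4, 1, 2, 1 and 1 lower. Over all genes that fit called 12.3% higher and 9.38% lower. With 2 libraries per group and the replicate spread seen here, intervals of RARG and NCOR1 leave moderate changes in either direction undecided.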
